A study of Homo sapiens with 4 samples.

Results

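A list of 41 genes known to be induced by low oxygen, other than those of glycolysis, was followed in SUM149PT cells in which the membrane protein gene EMP2 had been knocked down. SUM149PT is a human cell line derived from an inflammatory breast cancer. The genes were matched by symbol, and all 41 had a row among the 25343 genes of the deposited table. Of these, 38 reached at least 1 CPM (reads scaled by the authors to library size with TMM factors) in 2 or more of the 4 libraries and were tested among 13661 genes. Each of the 38 was above 1 CPM in all 4 libraries; none entered the test through 1 group alone. RORA, VLDLR and PPP1R3C were not tested.

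Pairs of values are given for replicates 1 and 2, first for the vector and then for the hairpin. Total RNA was sequenced from 2 libraries of a vector control, cells stably infected with a control shRNA lentivirus, and 2 libraries of an EMP2 knockdown, cells that stably carried an shRNA construct that the labels name Sh911. Both groups grew in Ham's F12K medium with serum, insulin and hydrocortisone, and the labels name no low-oxygen treatment. A single knockdown construct was used, so an effect of EMP2 loss and an effect of that hairpin cannot be told apart. Separate cultures are not named for the 2 libraries of a group, so every p-value rests on the spread between these libraries alone, which may be technical.

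The libraries held 13360907 to 14647053 reads, as recovered from the CPM values, and the limit that a count of 0 allows was 0.208 to 0.227 CPM (3 reads, counting error only). EMP2 stood at 126.1 and 124.6 CPM with the vector and at 23.0 and 22.6 CPM with the hairpin, in the direction of the labels. All 8 epithelial markers checked were between 236.2 and 1839 CPM (5 higher and 1 lower, summed 5922 to 5966 CPM with the vector and 6355 to 6430 CPM with the hairpin). Among the leukocyte markers CD3E was at 0 and PTPRC stayed below 0.3 CPM, and the summed level, 85.8 to 89.0 CPM with the vector and 63.6 to 66.3 CPM with the hairpin, was nearly all CD68. Of 5 fibroblast markers COL1A2 was at 0 and COL3A1 and PDGFRB were below 1 CPM, COL1A1 was at 38.6 and 43.8 CPM with the vector and 44.1 and 46.4 CPM with the hairpin and did not pass, and the sum went from 114.7 to 115.0 CPM to 87.3 to 88.2 CPM. DCN fell to 57.4% of its control. The 4 endothelial markers summed to 2.32 to 2.91 CPM. The part of CD68, DCN and the epithelial shift in the results was not tested.

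Cells sense oxygen through the hypoxia-inducible factors (HIFs), dimers of an unstable alpha subunit and the stable partner ARNT. With oxygen, prolyl hydroxylases of the EGLN family mark the alpha subunit for destruction by the VHL ubiquitin ligase. Without it, the dimer binds a short DNA element, the hypoxia response element, and raises genes for glucose use and also, outside glycolysis, genes for secreted hormones, mitophagy, collagen maturation, lipid storage and chromatin demethylation. In breast cancer these targets are studied for their part in invasion and in the collagen matrix, and many also answer to other signals such as nutrient stress or growth factors.

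Most of the movement was downward, and it was uneven. Of the 38 genes tested 16 fell and 8 rose in the knockdown (limma, adjusted p under 0.05 over 13661 genes), and 14 did not pass. In bulk RNA, fewer cells expressing a gene and less RNA per cell cannot be told apart. The lower calls made up 42.1% and the higher calls 21.1% of the 38, beside 16.8% lower and 16.6% higher among all genes tested. The list was chosen with earlier results of these data known, so these and the following shares are descriptions and not a test of the list. A higher level makes a call easier to reach: the 38 genes had a median of 58.0 CPM against 28.4 CPM for all genes tested. Among the 11095 genes that averaged 5 CPM or more 39.9% were called in either direction, against 33.4% of all genes tested and 63.2% of the 38. That cut does not match the level of the 38, 2 of which averaged less than 5 CPM, so the part of level in these shares was not tested. The median log2 change (knockdown minus control, on the log2(CPM + 0.5) scale, where the changes of low genes come out too small) was -0.11, against 0.0037 over all genes tested. Falls of at least 1.5-fold that limma also called were seen for 5 of the 38 genes (13.2%), beside 2.93% of all genes tested. Called falls of at least 2-fold were seen for 3, beside 0.871%, both on the log2(CPM + 0.5) scale. ADM lies at that line: its CPM means differ 2.03-fold, while its log2 change is -0.96. No member rose by 1.5-fold, while 2.9% of all genes tested did so and were called. All 5, TMEM45A, IRS2, STC1, ADM and ANGPTL4, were below both controls in both knockdown libraries. Over the 38 genes both knockdown libraries lay below both controls for 21 and above them for 9, and the groups overlapped for 8; among all genes tested 32.3% lay below and 33.4% above. The rises were smaller and depended on the test. Limma with no abundance trend called 0 of the 38 higher and 10 lower, beside 6.71% and 7.44% of all genes. At an unadjusted p under 0.05 that fit had 6 of the 38 higher, a smaller share than among all genes tested. On the recovered reads DESeq2 called 4 higher and 12 lower, beside 7.27% and 8.65%, and edgeR 8 and 17, beside 15.6% and 17.4%.

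**Figure D1:**
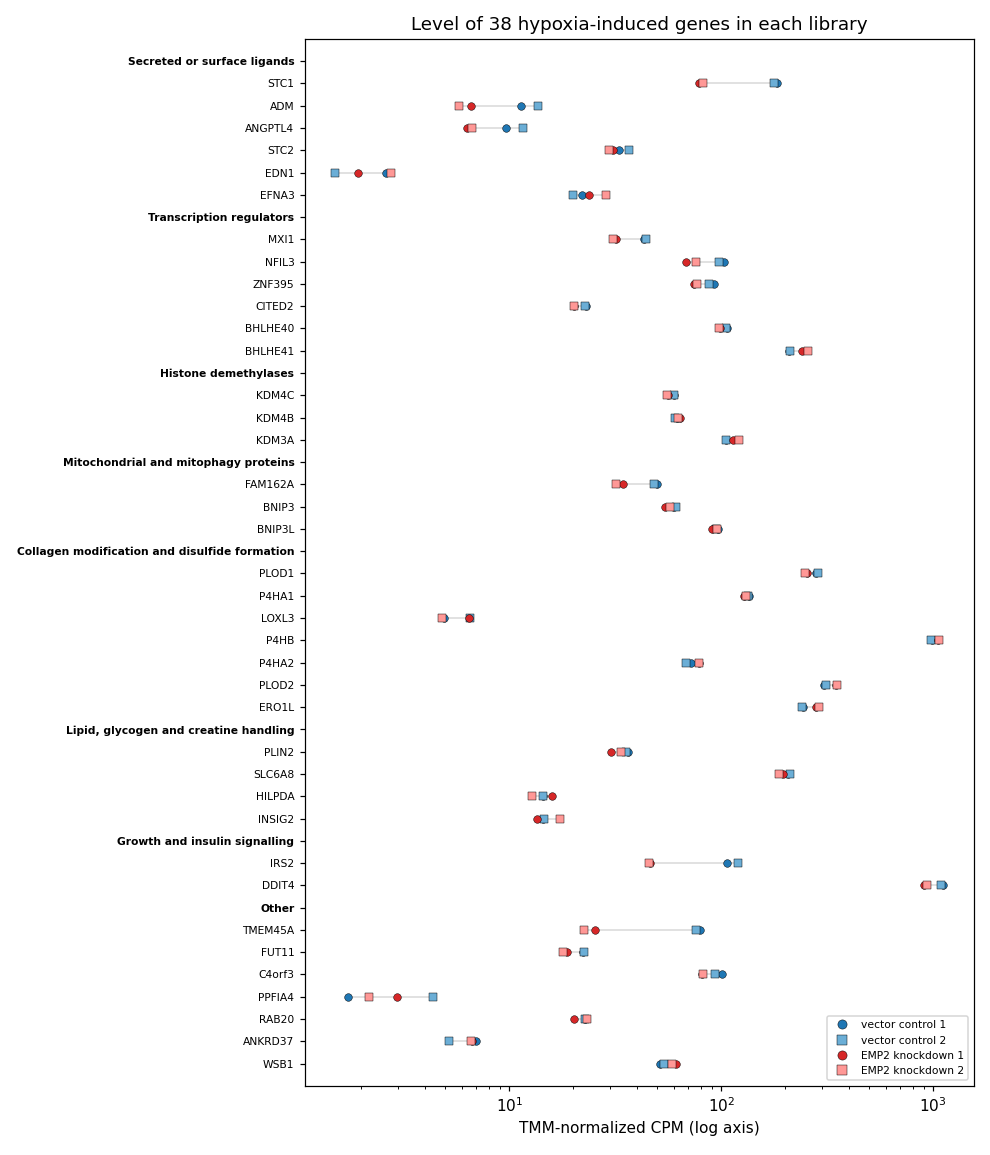
TMM-normalized CPM (log axis) of the 38 tested genes in each of the 4 libraries, grouped by role; circles and squares are replicates 1 and 2 of the vector control (blue) and the EMP2 knockdown (red). The widest gaps between blue and red points are those of TMEM45A, IRS2 and STC1, while the points of PPFIA4, EDN1 and LOXL3, all low genes, are interleaved.

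The largest fall was that of TMEM45A, which encodes a transmembrane protein. It stood at 79.1 and 76.0 CPM with the vector and at 25.5 and 22.5 CPM with the hairpin. The means were 77.5 ± 2.15 CPM and 24.0 ± 2.12 CPM (SD, n = 2), which leaves 30.9% of the control, with a log2 change of -1.68 (SE 0.065, limma adjusted p = 5.74e-12). GENCODE places it on the plus strand of chromosome 3 from 100492619 to 100577444 (GRCh38).

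IRS2, an adaptor that carries signals from the insulin and IGF receptors, was next. Its controls were at 106.9 and 120.5 CPM and its knockdowns at 46.1 and 45.7 CPM. Both knockdown values were under the lower control by more than the gap between the controls, and the mean fell to 40.4% of the control (log2 change -1.30, SE 0.054, limma adjusted p = 1.47e-11). DDIT4, an inhibitor of the growth kinase complex mTORC1 and the most abundant of the 41 per length of exon, fell far less. It read 1113 and 1089.8 CPM with the vector and 909.0 and 937.2 CPM with the hairpin, that is 83.8% of the control (log2 change -0.25, SE 0.023, limma adjusted p = 2.82e-07). GENCODE annotates an antisense RNA over 41.2% of the exon bases of DDIT4, and no source names the strand setting of the counting, so the 2 cannot be told apart.

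The windows around the annotated starts of these genes are shown for the 4 largest falls and the 2 largest rises that have one in the RefSeq table (GRCh38.p14), and for BNIP3, the gene with the most matches among those that did not pass the test. Each runs 5′ to 3′ on the strand of the gene, from 250 bases before the start to 50 bases after it, and capitals mark the 5-letter cores of the hypoxia response element, ACGTG and GCGTG, on either strand (CACGT and CACGC when read from the other strand).
TMEM45A: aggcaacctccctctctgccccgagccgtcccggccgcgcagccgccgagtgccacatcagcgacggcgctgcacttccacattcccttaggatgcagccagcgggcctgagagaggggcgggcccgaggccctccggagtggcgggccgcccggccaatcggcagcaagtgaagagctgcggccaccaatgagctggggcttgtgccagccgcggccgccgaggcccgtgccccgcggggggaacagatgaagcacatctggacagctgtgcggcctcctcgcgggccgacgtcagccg
IRS2: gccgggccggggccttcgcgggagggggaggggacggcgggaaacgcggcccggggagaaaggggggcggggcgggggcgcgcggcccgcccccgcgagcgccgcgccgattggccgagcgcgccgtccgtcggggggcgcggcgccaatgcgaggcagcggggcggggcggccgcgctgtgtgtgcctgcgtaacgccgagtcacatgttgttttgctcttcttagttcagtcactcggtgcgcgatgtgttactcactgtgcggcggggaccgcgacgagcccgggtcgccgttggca
ADM: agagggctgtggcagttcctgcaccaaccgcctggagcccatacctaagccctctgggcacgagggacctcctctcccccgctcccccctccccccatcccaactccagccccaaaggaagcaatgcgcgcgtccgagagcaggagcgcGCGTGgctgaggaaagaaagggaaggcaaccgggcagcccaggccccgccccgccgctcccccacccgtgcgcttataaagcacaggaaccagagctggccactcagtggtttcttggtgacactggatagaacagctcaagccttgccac
ANGPTL4: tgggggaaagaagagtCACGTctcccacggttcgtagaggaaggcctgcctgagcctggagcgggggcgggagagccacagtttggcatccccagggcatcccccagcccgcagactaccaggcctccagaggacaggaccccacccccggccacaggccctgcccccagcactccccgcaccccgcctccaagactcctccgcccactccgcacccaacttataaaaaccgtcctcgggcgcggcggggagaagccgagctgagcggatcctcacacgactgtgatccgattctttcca
EFNA3: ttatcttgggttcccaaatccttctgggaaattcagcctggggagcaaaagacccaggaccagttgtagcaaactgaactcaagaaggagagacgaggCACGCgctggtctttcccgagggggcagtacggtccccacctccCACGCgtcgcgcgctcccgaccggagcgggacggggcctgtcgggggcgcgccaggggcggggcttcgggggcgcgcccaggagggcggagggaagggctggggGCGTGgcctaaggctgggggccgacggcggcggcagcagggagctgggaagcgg
BHLHE41: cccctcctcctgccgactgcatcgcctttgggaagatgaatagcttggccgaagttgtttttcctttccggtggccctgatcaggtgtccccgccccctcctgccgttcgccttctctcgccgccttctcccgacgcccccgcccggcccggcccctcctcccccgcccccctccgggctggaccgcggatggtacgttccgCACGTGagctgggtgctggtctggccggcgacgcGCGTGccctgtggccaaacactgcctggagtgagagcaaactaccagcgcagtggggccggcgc
BNIP3: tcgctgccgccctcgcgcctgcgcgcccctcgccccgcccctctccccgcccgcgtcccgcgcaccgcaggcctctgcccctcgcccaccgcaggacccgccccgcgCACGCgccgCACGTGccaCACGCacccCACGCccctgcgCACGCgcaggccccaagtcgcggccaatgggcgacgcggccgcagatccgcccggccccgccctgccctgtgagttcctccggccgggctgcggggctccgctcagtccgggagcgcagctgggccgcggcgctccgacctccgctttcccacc

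The windows of TMEM45A (chr3:100492369-100492668, plus strand) and IRS2 (chr13:109786534-109786833, minus strand), the genes with the 2 largest falls, held neither core. That of ADM (chr11:10304823-10305122, plus strand) held GCGTG once, 101 bases before the start, and that of ANGPTL4 (chr19:8363905-8364204, plus strand) held ACGTG once, 234 bases before it. EFNA3 (chr1:155078587-155078886, plus strand), which rose, had 3 matches of GCGTG, 152, 108 and 4 bases before the start. In BHLHE41 (chr12:26124988-26125287, minus strand), which also rose, the run CACGTG counts as 2 overlapping matches of ACGTG, 48 and 47 bases before the start, and GCGTG followed 14 bases before it. BNIP3 (chr10:131981874-131982173, minus strand) had 6 matches between 143 and 104 bases before its start, 4 of them GCGTG, and its change did not pass the test.

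RefSeq windows were matched for 36 of the 41 genes, 3 of them under newer symbols (ERO1L as ERO1A, FUT11 as POFUT4, C4orf3 as ARLN). BNIP3L, STC1, RAB20, HILPDA and ZNF395 had none in the table used. With 1 window a gene, ACGTG was present in 20 of 36 (55.6%), against 26.4% of 9971 tested genes and 21.6% of all 27305 genes with a window. GCGTG was present in 20 of 36 as well (55.6%), against 50.9% and 36.3%. Within the list ACGTG was found in 5 of 14 windows of genes that fell, 4 of 8 of genes that rose and 10 of 11 of genes that did not pass. These are counts of letters in one short window; they say nothing of binding, of elements elsewhere, or of genes with further starts.

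**Figure D2:**
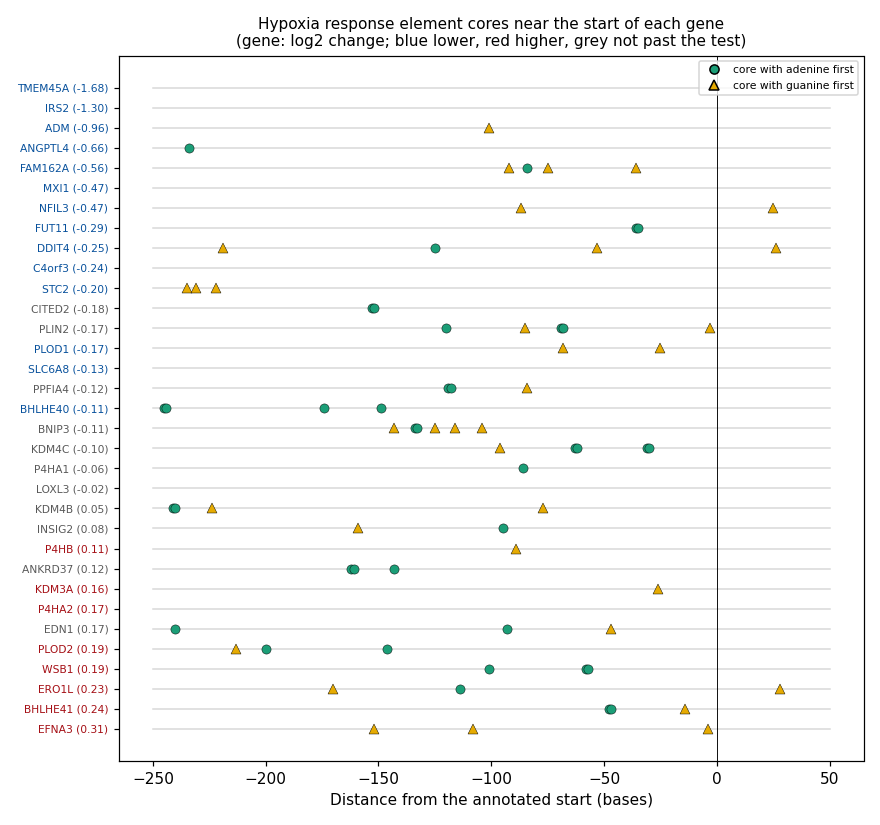
Distance from the annotated start (bases) of each core in 1 promoter window a gene, for the 33 tested genes with a window, ordered from the largest fall (top) to the largest rise; circles are cores that begin with adenine and triangles cores that begin with guanine on either strand. The top 2 rows, TMEM45A and IRS2, are empty, and circles crowd the middle rows, where genes did not pass the test.

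Secreted and surface ligands held 3 of the 5 largest falls. Of 6 tested, 4 fell, 1 rose and 1 did not pass, beside 16.8% lower and 16.6% higher among all genes tested. STC1, a secreted stanniocalcin of calcium and phosphate balance, was at 184.1 and 176.8 CPM with the vector and at 78.3 and 82.3 CPM with the hairpin. The knockdown mean was 44.5% of the control (log2 change -1.16, SE 0.04, limma adjusted p = 1.38e-12). Its paralogue STC2 was at 32.9 and 36.9 CPM with the vector and at 30.9 and 29.7 CPM with the hairpin, a small fall (log2 change -0.20, SE 0.071, limma adjusted p = 0.0382) that was not called without control replicate 2 (limma adjusted p = 0.344) or without knockdown replicate 2 (limma adjusted p = 0.117), with the replicate block (limma adjusted p = 0.056) or by DESeq2 (adjusted p = 0.315).

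ADM encodes adrenomedullin, a peptide that widens blood vessels. Its values were 11.3 and 13.7 CPM with the vector and 6.60 and 5.77 CPM with the hairpin, so that the 2 groups were well apart at a low level (49.4% of the control; log2 change -0.96, SE 0.13, limma adjusted p = 3.11e-05). ANGPTL4, a secreted inhibitor of lipoprotein lipase, went from 9.62 and 11.6 CPM to 6.31 and 6.67 CPM (log2 change -0.66, SE 0.13, limma adjusted p = 0.00103). EDN1, the precursor of the vessel-narrowing peptide endothelin, was near the filter, at 2.63 and 1.51 CPM with the vector and 1.94 and 2.77 CPM with the hairpin. Its groups overlapped, and the 95% confidence interval of its log2 change, -0.37 to 0.71, was too wide at this depth to show a change of the size seen for EFNA3.

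EFNA3, a membrane-anchored ligand of Eph receptors, rose. It read 21.9 and 19.9 CPM with the vector and 23.7 and 28.5 CPM with the hairpin (log2 change 0.31, SE 0.092, limma adjusted p = 0.0149). The higher knockdown value is that of replicate 2; without it the log2 change was 0.18 and the call was lost (limma adjusted p = 0.206), and without control replicate 2 it was lost as well (limma adjusted p = 0.0801). DESeq2 did not call EFNA3 (adjusted p = 0.164). GENCODE places a further gene on the same strand over 44.7% of its exon bases.

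Among the transcription regulators 4 of 6 fell, 1 rose and 1 did not pass, beside 16.8% lower and 16.6% higher among all genes tested. MXI1, which competes with MYC for the partner MAX, was at 43.3 and 44.0 CPM with the vector and 31.7 and 30.9 CPM with the hairpin (log2 change -0.47, SE 0.061, limma adjusted p = 1.24e-05). NFIL3, a basic leucine zipper repressor, was at 103.3 and 97.4 CPM with the vector and 68.4 and 76.3 CPM with the hairpin (log2 change -0.47, SE 0.052, limma adjusted p = 2.47e-06). Both genes were thus left at about the same share of their control, 71.7% for MXI1 and 72.1% for NFIL3. The zinc finger gene ZNF395 fell to 84.3% of the control (log2 change -0.24, limma adjusted p = 0.000468). Limma with no abundance trend did not call ZNF395 (adjusted p = 0.0625). It shares 34.9% of its annotated exon bases with FBXO16 on the same strand, which read no more than 2.88 CPM.

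BHLHE40 and BHLHE41, basic helix-loop-helix repressors that also act in the circadian clock, went apart. BHLHE40 was at 106.4 and 105.3 CPM with the vector and at 98.2 and 97.2 CPM with the hairpin (log2 change -0.11, SE 0.039, limma adjusted p = 0.0327). That small fall lost its call with each of the 4 libraries left out in turn (limma adjusted p from 0.0571 to 0.132). BHLHE41 was at 208.6 and 210.7 CPM with the vector and at 239.1 and 255.2 CPM with the hairpin (log2 change 0.24, SE 0.034, limma adjusted p = 4.6e-05). Limma with no abundance trend called neither gene (adjusted p = 0.0684 for BHLHE41 and 0.152 for BHLHE40). CITED2, which binds the coactivator p300 in competition with HIF, was at 23.0 and 22.9 CPM and at 20.2 and 20.3 CPM. Its groups did not overlap, yet it did not pass (log2 change -0.18, limma adjusted p = 0.0954). RORA, a nuclear receptor, was below 1 CPM throughout, with 5 to 12 reads a library.

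**Figure D3:**
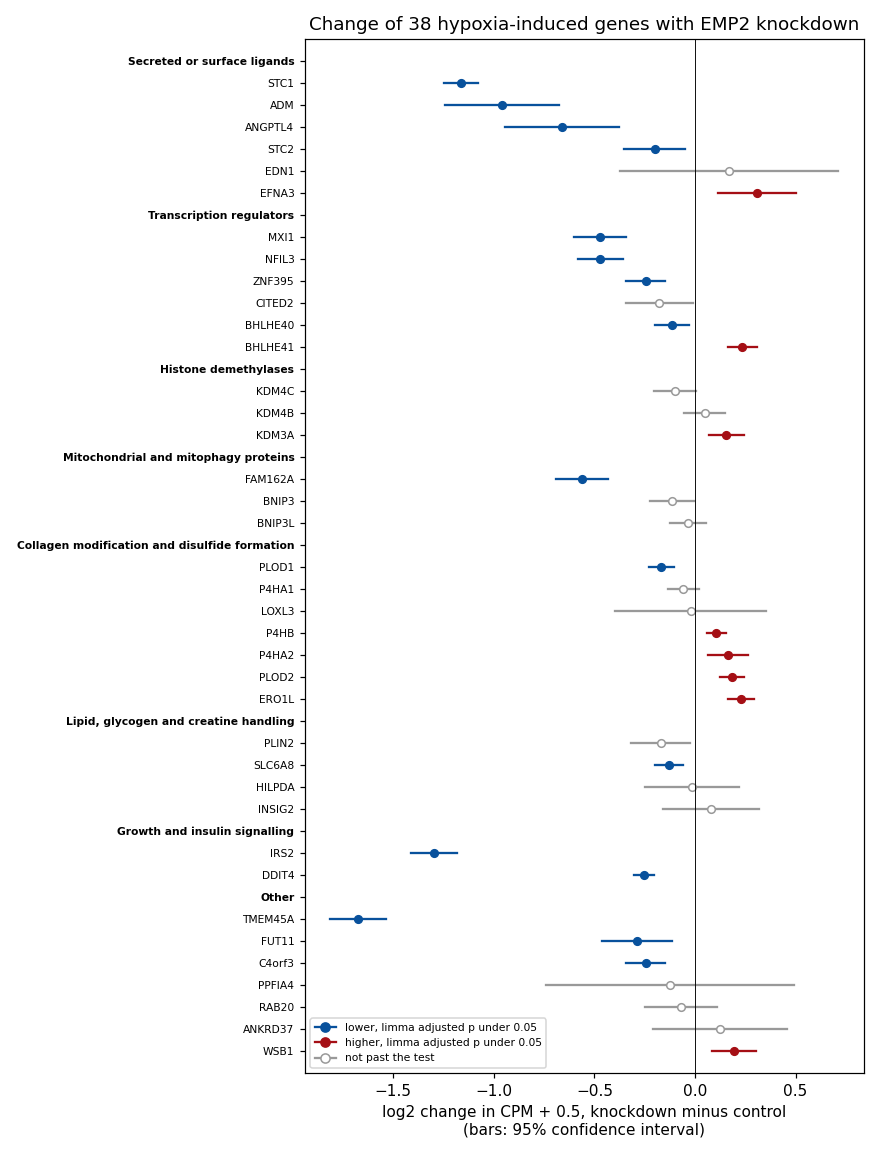
Log2 change in CPM + 0.5 (knockdown minus control) of the 38 tested genes with its 95% confidence interval from limma, grouped by role; blue marks lower and red higher genes at an adjusted p under 0.05, and open grey points did not pass. Points far left of 0 belong to several roles, the red points all lie within 0.31 of 0, and 4 of the 8 red points are in the collagen and disulfide group.

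Of the genes for collagen modification and disulfide formation in the endoplasmic reticulum 4 of 7 rose and 1 fell, beside 16.6% higher and 16.8% lower among all genes tested. All 4 rises lost their call in limma with no abundance trend (adjusted p from 0.0558 to 0.17), and P4HA2 also in DESeq2 (adjusted p = 0.205). ERO1L, the oxidase that recharges protein disulfide isomerase, was at 243.6 and 240.4 CPM with the vector and at 278.6 and 288.6 CPM with the hairpin (log2 change 0.23, SE 0.03, limma adjusted p = 1.86e-05). P4HB, both that isomerase and the beta subunit of collagen prolyl hydroxylase, was at 986.1 and 974.5 CPM with the vector and at 1053 and 1059 CPM with the hairpin, a rise to 107.7% of the control (limma adjusted p = 0.00101). P4HA2, a catalytic alpha subunit, went from 72.0 and 67.9 CPM to 78.7 and 78.2 CPM (log2 change 0.17, limma adjusted p = 0.0114), a call that was lost without control replicate 2 (then limma adjusted p = 0.115). P4HA1, the other alpha subunit here, was at 135.0 and 133.1 CPM and at 127.5 and 130.1 CPM and did not pass (log2 change -0.06, 95% confidence interval -0.13 to 0.019).

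The lysyl hydroxylases PLOD1 and PLOD2, which prepare collagen for cross-linking, moved in opposite directions. PLOD2 was at 303.9 and 310.3 CPM with the vector and at 348.1 and 350.3 CPM with the hairpin (log2 change 0.19, SE 0.028, limma adjusted p = 6.21e-05). PLOD1 was at 278.7 and 285.2 CPM with the vector and at 252.8 and 249.2 CPM with the hairpin (log2 change -0.17, SE 0.03, limma adjusted p = 0.000303). Limma with no abundance trend called neither gene (adjusted p = 0.0703 for PLOD2 and 0.086 for PLOD1). The ratio of PLOD2 to PLOD1 CPM was 1.09 in both controls and 1.38 and 1.41 in the knockdowns. For BHLHE41 over BHLHE40 the ratio was 1.96 and 2.00 in the controls and 2.44 and 2.62 in the knockdowns, and for STC2 over STC1 it was 0.179 and 0.209 in the controls and 0.394 and 0.361 in the knockdowns. These ratios are given as values, and their difference between the groups was not tested. LOXL3, of the lysyl oxidase family, was low, at 4.91 and 6.51 CPM with the vector and 6.46 and 4.79 CPM with the hairpin, with overlapping groups, and 14.3% of its exon bases lie opposite HTRA2, a gene at 30.9 to 39.6 CPM.

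**Figure D4:**
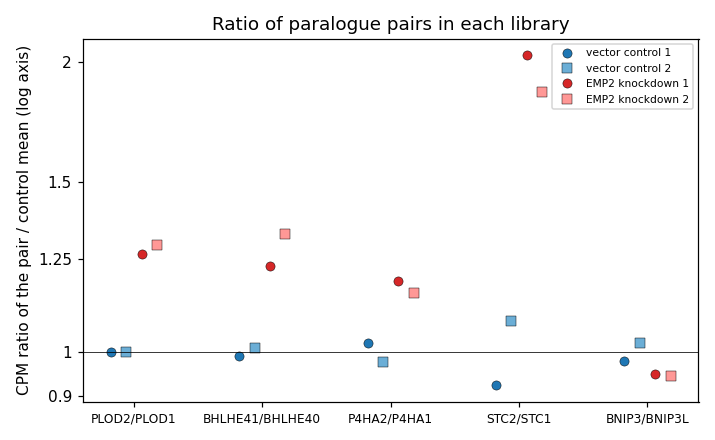
Ratio of the CPM of 2 paralogues in each library, divided by the mean ratio of the 2 controls (log axis); colours and shapes mark the 4 libraries. Both knockdown points lie above both controls for PLOD2/PLOD1, BHLHE41/BHLHE40, P4HA2/P4HA1 and STC2/STC1, and slightly below them for BNIP3/BNIP3L.

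Of the 3 mitochondrial genes 1 fell, beside 16.8% of all genes tested. FAM162A, a mitochondrial protein known to promote cell death in low oxygen, was at 49.9 and 48.3 CPM with the vector and at 34.2 and 32.0 CPM with the hairpin (67.4% of the control; log2 change -0.56, SE 0.061, limma adjusted p = 1.86e-06). BNIP3 and BNIP3L, receptors that direct mitochondria to autophagy, did not pass. BNIP3 was at 59.6 and 61.2 CPM with the vector and at 54.3 and 57.3 CPM with the hairpin (log2 change -0.11, 95% confidence interval -0.22 to -0.0043, limma adjusted p = 0.104). BNIP3L was at 96.1 and 94.7 CPM and at 90.5 and 95.9 CPM, with overlapping groups and an interval of -0.13 to 0.056, so a fall as large as that of FAM162A lies outside the intervals of both.

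Among the histone demethylases, enzymes that need oxygen to remove methyl groups from lysine, KDM3A rose from 104.9 CPM in both vector libraries to 113.2 and 120.9 CPM (log2 change 0.16, SE 0.041, limma adjusted p = 0.00738). Without knockdown replicate 2 its call was lost (log2 change 0.11), and DESeq2 did not call it either (adjusted p = 0.123). KDM4B (log2 change 0.05) and KDM4C (-0.10) did not pass, with intervals of -0.053 to 0.15 and -0.20 to 0.0052.

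Genes of lipid, glycogen and creatine handling had 1 call among 4 tested (25%), beside 33.4% called in either direction among all genes tested. SLC6A8, the creatine transporter, fell from 207.3 and 211.1 CPM to 195.9 and 186.6 CPM (log2 change -0.13, limma adjusted p = 0.00702). Its call was lost without knockdown replicate 2 (log2 change -0.09), and DESeq2 did not call it either (adjusted p = 0.0704). PLIN2, a coat protein of lipid droplets, was at 36.4 and 35.5 CPM with the vector and 30.2 and 33.6 CPM with the hairpin and stood at the threshold: limma gave an adjusted p = 0.067 (0.0153 without knockdown replicate 2), and edgeR on the recovered reads an adjusted p = 0.0497. HILPDA, an inhibitor of lipid droplet breakdown, was at 14.5 and 14.4 CPM with the vector and on either side of them, at 15.9 and 12.8 CPM, in the knockdowns. INSIG2, which holds back sterol regulation in the endoplasmic reticulum, likewise straddled its controls, with 13.6 and 17.4 CPM against 14.4 and 14.6 CPM. VLDLR, a lipoprotein receptor, had at most 2 reads in a library and PPP1R3C, a glycogen-targeting subunit of a protein phosphatase, 3 reads in 1 control and 0 in the other 3 libraries, so that neither could be compared.

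Of the 7 genes with other roles 3 fell and 1 rose, beside 16.8% lower and 16.6% higher among all genes tested. Besides TMEM45A, the fucosyltransferase gene FUT11 fell from 22.3 and 22.6 CPM to 18.7 and 18.0 CPM (limma adjusted p = 0.0116), a call lost without control replicate 2 (then limma adjusted p = 0.0568). DESeq2 did not call FUT11 either (adjusted p = 0.208). C4orf3, which encodes a small membrane protein of the endoplasmic reticulum, fell from 100.8 and 93.0 CPM to 81.4 and 82.0 CPM (limma adjusted p = 0.00054). Limma with no abundance trend did not call C4orf3 (adjusted p = 0.075). WSB1, the substrate receptor of a ubiquitin ligase, rose from 51.4 and 53.5 CPM to 61.1 and 58.9 CPM (log2 change 0.19, limma adjusted p = 0.00803). Its call was lost without control replicate 1 (log2 change 0.16), and DESeq2 did not call it either (adjusted p = 0.177).

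The last 3 did not pass, and their groups overlapped. RAB20, a small GTPase of vesicle traffic, was at 22.8 CPM in both vector libraries and at 20.3 and 23.1 CPM with the hairpin. ANKRD37, an ankyrin repeat protein, was at 6.99 and 5.23 CPM with the vector and 6.67 and 6.59 CPM with the hairpin; 35.2% of its exon bases lie opposite UFSP2, a gene at 52.1 to 55.2 CPM. PPFIA4, a liprin scaffold protein, had the widest control spread in proportion, 1.73 and 4.39 CPM, around knockdown values of 2.94 and 2.2 CPM. Its log2 change was -0.69 without control replicate 1 (limma adjusted p = 0.0416) and 0.44 without control replicate 2, and it also turned to 0.06 without knockdown replicate 2.

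Levels per length of exon (control mean CPM per kilobase of GENCODE exon) spread widely over the 38 genes. DDIT4 was highest at 535.1 and P4HB second at 184.9, followed by BHLHE41 at 53.1 and PLOD1 at 53.0. The genes with the 3 largest falls lay in the range between, STC1 at 43.5, IRS2 at 14.0 and TMEM45A at 12.9, and PPFIA4 was lowest at 0.315.

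Other HIF targets and the oxygen-sensing machinery were read from the same fit. Of 25 other HIF targets 19 fell and 0 rose, beside 16.8% and 16.6% of all genes tested, with a median log2 change of -0.19. Their control means ran from 5.09 CPM (SLC2A3) to 6652 CPM (GAPDH), against a median of 28.4 CPM for all genes tested. A higher level makes a call easier to reach, and the part of level was not tested. Some called falls were small, such as GAPDH at -0.09 and SLC2A1 at -0.12. Called falls of at least 1.5-fold were seen for 7 of the 25 (28%), beside 2.93% of all genes tested. The list spans glucose use, acid-base balance and angiogenesis, and it also holds NDRG1 and LOX, which have other roles. It too was chosen with earlier results of these data known. EdgeR and DESeq2 also called 0 of them higher, and 0 had an unadjusted limma p under 0.05 with a rise. With quantile scaling 16 fell, the calls of TPI1, GAPDH and ENO1 were lost, and the median was -0.12, against -0.10 for the 38 genes outside glycolysis. That scaling gives a gene that keeps its rank the same value in every library, so it cannot show whether the most abundant genes changed. GAPDH came out at 0 by it. DESeq2 called TPI1, GAPDH and ENO1 lower (adjusted p from 7.5e-21 to 1.9e-06), and limma with no trend did not (adjusted p from 0.064 to 0.20). The members with the smallest p were NDRG1, a stress-response gene, at 24.0% of its control, the hexokinase gene HK2 at 54.0%, the collagen cross-linking oxidase LOX at 55.2% and the carbonic anhydrase gene CA12 at 29.3%. Of 9 tested HIF subunits and oxygen sensors 5 fell and 0 rose, beside 16.8% and 16.6% of all genes tested, with a median of -0.18. Here too edgeR and DESeq2 called 0 higher and 0 had an unadjusted limma p under 0.05 with a rise, beside the values for all genes given above. The prolyl hydroxylase gene EGLN2 had a log2 change of 0.20 that did not pass, and it was called higher without control replicate 2 (0.38, limma adjusted p = 0.000804) and without knockdown replicate 2 (0.35, limma adjusted p = 8.38e-05). EPAS1, the HIF-2 alpha subunit, was at 578.6 CPM in both vector libraries and at 405.4 and 431.1 CPM with the hairpin (log2 change -0.47, limma adjusted p = 2.65e-09). HIF1A, the HIF-1 alpha subunit, went from 970.0 and 968.5 CPM to 838.5 and 875.1 CPM (log2 change -0.18, limma adjusted p = 2.43e-05). The prolyl hydroxylase genes EGLN1 (log2 change -0.21) and EGLN3 (-0.54) fell as well. Whether the 38 genes outside glycolysis moved less than the 25 other HIF targets was not tested.

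**Figure D5:**
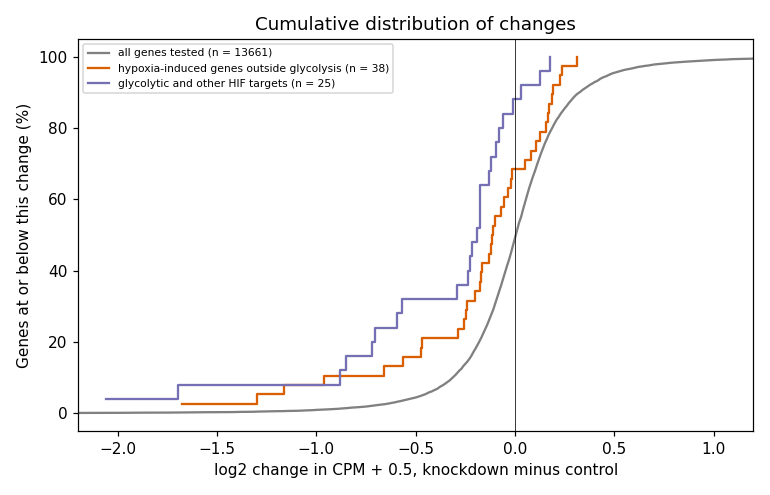
Share of genes (%) at or below each log2 change in CPM + 0.5 (knockdown minus control) for all 13661 genes tested (grey), the 38 hypoxia-induced genes outside glycolysis (orange) and 25 glycolytic and other HIF targets (violet). Both coloured lines lie left of the grey line over most of their range, with medians of -0.11 and -0.19 (-0.10 and -0.12 with quantile scaling) against 0.0037, and the orange line ends at 0.31 on the right.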

How the data were processed

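RNA of 4 libraries, 2 of a vector control and 2 of an EMP2 knockdown, was compared. From 1 µg of RNA, ribosomal RNA was removed with a RiboErase kit before single reads of 50 bases were sequenced, per the labels' protocols. GRCh38, STAR, DESeq2 and bcl2fastq 2.17 are named in the submitters' processing notes; no source used here gives the counter, the annotation or the strand setting. The deposited values are named by the authors as TMM-normalized CPM. Whole reads were recovered for 100% of values (within 0.1 read).

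The main test was limma 3.58.1 (R 4.3.3) with trended variances on log2(CPM + 0.5), two-sided, Benjamini-Hochberg adjusted over 13661 genes with at least 1 CPM in 2 or more libraries; called means an adjusted p under 0.05. Alternatives were pseudocounts of 0.1 and 1, other filters, no trend, quantile scaling, a replicate block, each library left out, and edgeR 4.0.16 and DESeq2 1.42.0 on recovered reads. The fits were also run on simulated data whose spread was estimated from these same libraries. That run cannot show how the fits behave if the replicates are only technical. Chi-square per gene between replicates was 1.66 and 1.64, above counting noise, which separate preparations of 1 culture could also give. All 4 libraries were counted, and whether they are separate cultures stays unknown. All members are named; of each further list, the called genes with the smallest adjusted p, up to 4. Members and lists were chosen with earlier results of these data known. Exons and overlaps are from GENCODE v29, promoter windows from RefSeq (GRCh38.p14).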

Additional observations from a re-analysis of the deposited data

How the results depend on the processing

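Of the 24 calls, 9 were made in all 14 settings, the main one included: the falls of ADM, ANGPTL4, STC1, MXI1, NFIL3, FAM162A, DDIT4, IRS2 and TMEM45A. Leaving aside the fit with no trend, 16 were made in all others, with BHLHE41, P4HB, PLOD2 and ERO1L as the rises among them. How many of all genes tested kept their call in every setting was not counted, so these counts have no share beside them. With no trend limma called 0 of the 38 genes higher and 10 lower, where edgeR called 8 and 17 and DESeq2 4 and 12. In the fit with no trend 6 of the 38 were higher at an unadjusted p under 0.05, a smaller share than among all genes tested. The 8 calls lost with DESeq2 were those of STC2, EFNA3, BHLHE40, KDM3A, P4HA2, SLC6A8, FUT11 and WSB1. With no trend 9 of the 25 other HIF targets and 1 of the 9 tested HIF subunits and oxygen sensors were lower, beside 7.44% of all genes tested. Over all genes the counts were 916 higher and 1016 lower with no trend and 993 and 1181 with DESeq2, against 2269 and 2294 in the main test; the cause was not tested. Each library was left out in turn, and the lone library of a group is then assumed to vary like the other group. In these fits the median of the members was -0.143 to -0.101. The log2 change of EGLN2 was 0.021 to 0.38. Replicate numbers are shared by the groups, but replicate differences did not correlate between them (r = -0.00295 over 13661 genes). No shared shift by number was thus seen, though this cannot show whether libraries of the same number were handled together. With the replicate block 8 members were higher and 15 lower, and STC2 lost its call. No scaling moved the median of all genes by over 0.1. EMP2 kept its fall in every alternative (log2 change -2.44 to -2.42 with a library left out). Depth limits the low genes EDN1, PPFIA4, LOXL3, RORA, VLDLR and PPP1R3C.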
